A study of Mus musculus with 6 samples.

Results

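The insulin-like growth factor system of the ventral dentate gyrus was described through 10 genes of the 24062 gene symbols counted in the series. They are the ligand genes Igf1 and Igf2, the receptor genes Igf1r and Igf2r, and the binding protein genes Igfbp2, Igfbp3, Igfbp4, Igfbp5, Igfbp6 and Igfbp7. The set was chosen from Igfbp6, which stood out between stressed and control mice in these same data, and was filled with its family by name. The stress difference of Igfbp6 is therefore given as a description, and its adjusted p only as the value that chose it. The other 9 genes were taken by family and were read from a fit across all genes. All 10 passed the filter on low counts.

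The samples were 6 total RNA libraries of ventral dentate gyrus, the part of the hippocampal entry region often studied in relation to emotion. 3 came from male mice of the strain labelled C57black 6 without stress, and 3 from male mice of the same strain after chronic restraint stress, a repeated confinement. No transgene or drug is named for either group. How long the stress lasted, how old the mice were and whether animals were pooled is not given in the labels used here. P-values therefore measure only the spread between these libraries. The libraries held 8305753 to 10107953 gene counts each. Values are CPM, the counts of a gene relative to the summed counts, in its library, of the genes that passed the filter on low counts. They are scaled by the trimmed mean of M values (TMM), and 3 counts correspond to 0.294 to 0.363 CPM.

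Insulin-like growth factors are small secreted proteins related to insulin. They act through the tyrosine kinase receptor encoded by Igf1r, while the receptor encoded by Igf2r binds IGF2 and carries it to lysosomes for breakdown. Secreted binding proteins hold the ligands outside the cell and limit or prolong their action, and proteases release the ligands again. In the adult brain Igf2 and Igfbp2 are known for strong expression in the choroid plexus and the meninges, and IGFBP6 is known for preferring IGF2 over IGF1.

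Promoter windows are shown for Igfbp6, the gene the set was chosen from, and for the chromosome 1 neighbours Igfbp2 and Igfbp5, which differed in opposite directions in 1 library. Each runs from 250 bases before to 50 bases after the start site on build GRCm38.p6, from RefSeq, in which all 10 genes matched. The Igfbp6 window is chr15:102143936-102144235 on the plus strand, the first Igfbp2 window chr1:72824230-72824529 on the plus strand, and the Igfbp5 window chr1:72874816-72875115 on the minus strand. Capitals mark matches on either strand to any of 8 motifs.
Igfbp6: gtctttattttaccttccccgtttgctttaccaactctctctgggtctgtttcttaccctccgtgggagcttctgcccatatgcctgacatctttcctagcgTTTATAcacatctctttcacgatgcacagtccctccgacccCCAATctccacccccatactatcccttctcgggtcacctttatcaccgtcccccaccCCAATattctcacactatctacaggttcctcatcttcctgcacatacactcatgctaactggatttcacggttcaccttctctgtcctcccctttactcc
Igfbp2: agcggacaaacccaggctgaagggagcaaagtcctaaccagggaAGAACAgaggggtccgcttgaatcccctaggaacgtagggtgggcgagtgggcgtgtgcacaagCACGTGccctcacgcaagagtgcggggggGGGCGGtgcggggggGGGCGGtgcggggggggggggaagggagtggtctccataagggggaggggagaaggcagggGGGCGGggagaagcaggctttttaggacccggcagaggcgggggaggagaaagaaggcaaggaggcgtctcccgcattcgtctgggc
Igfbp5: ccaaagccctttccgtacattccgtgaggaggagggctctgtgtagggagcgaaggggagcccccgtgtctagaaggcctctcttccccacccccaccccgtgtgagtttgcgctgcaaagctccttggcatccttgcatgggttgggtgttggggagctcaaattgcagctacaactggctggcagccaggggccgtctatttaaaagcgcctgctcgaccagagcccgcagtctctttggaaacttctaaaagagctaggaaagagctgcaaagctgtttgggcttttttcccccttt

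The motifs were searched on both strands. In the Igfbp6 window the CCAAT box, spelled CCAAT, occurred at positions -107 and -50 from the start site, and 37.4% of 32851 mouse promoter windows hold it. The letters of the TATA box, TATAAA, occurred there on the reverse strand at -148, and 13.6% of windows hold them. The Igfbp2 window held 3 GC boxes, spelled GGGCGG, which 35.7% of windows hold. It also held 1 E-box, spelled CACGTG, which 7.15% hold, and 1 copy of the letters AGAACA, which are one arm of the longer glucocorticoid receptor element and which 18.97% hold. None of the 8 motifs was in the Igfbp5 window. The AP-1 site TGACTCA was in 5.20% of all windows and the cAMP response element TGACGTCA in 1.79%, and an NF-kB consensus site in 0.16%. These 3 were in none of the windows shown. The second Igfbp2 window, which is not shown, held the AP-1 site on the reverse strand at -39. The Igfbp6 window was 49.7% G and C with 8 CpG dinucleotides, against medians of 52.7% and 7 over all windows. Among the members the windows of Igf1r, Igfbp3, Igf2r and Igfbp7 were the richest in CpG, with 48, 37, 34 and 33. A match is a description of letters in a window and not a bound site.

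Igfbp6 was lower in each stress library than in any control. It was counted 107, 128 and 149 times in control replicates 1, 2 and 3 and 50, 48 and 49 times in stress replicates 1, 2 and 3. Scaled, these were 12.95, 12.5 and 15.9 CPM in controls and 5.46, 5.59 and 5.09 CPM under stress. The 3 stress libraries lay within 1 CPM of each other, and the groups did not overlap. The means were 13.8 ± 1.80 and 5.38 ± 0.258 CPM (SD, n = 3). The log2 ratio of stress to control, fitted over all genes by edgeR, was -1.36 (SE 0.16). Each SE printed is that of limma-voom's fit of the same comparison. Igfbp6 was 1 of the 4 genes past the threshold of 0.05 on the adjusted p of edgeR's quasi-likelihood test, or 0.0285% of the 14058 genes tested, at an adjusted p of 0.0456. This is the value that chose it. Leaving out stress replicate 1 gave a log2 ratio of -1.37 (SE 0.20), and over all single libraries left out it lay between -1.42 and -1.24. The call itself was lost without control replicate 1, 2 or 3 or stress replicate 3. These are the libraries that chose the gene, so none of these values is independent of the choice. In bulk RNA, fewer cells of a type and less RNA per cell cannot be told apart.

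**Figure D1:**
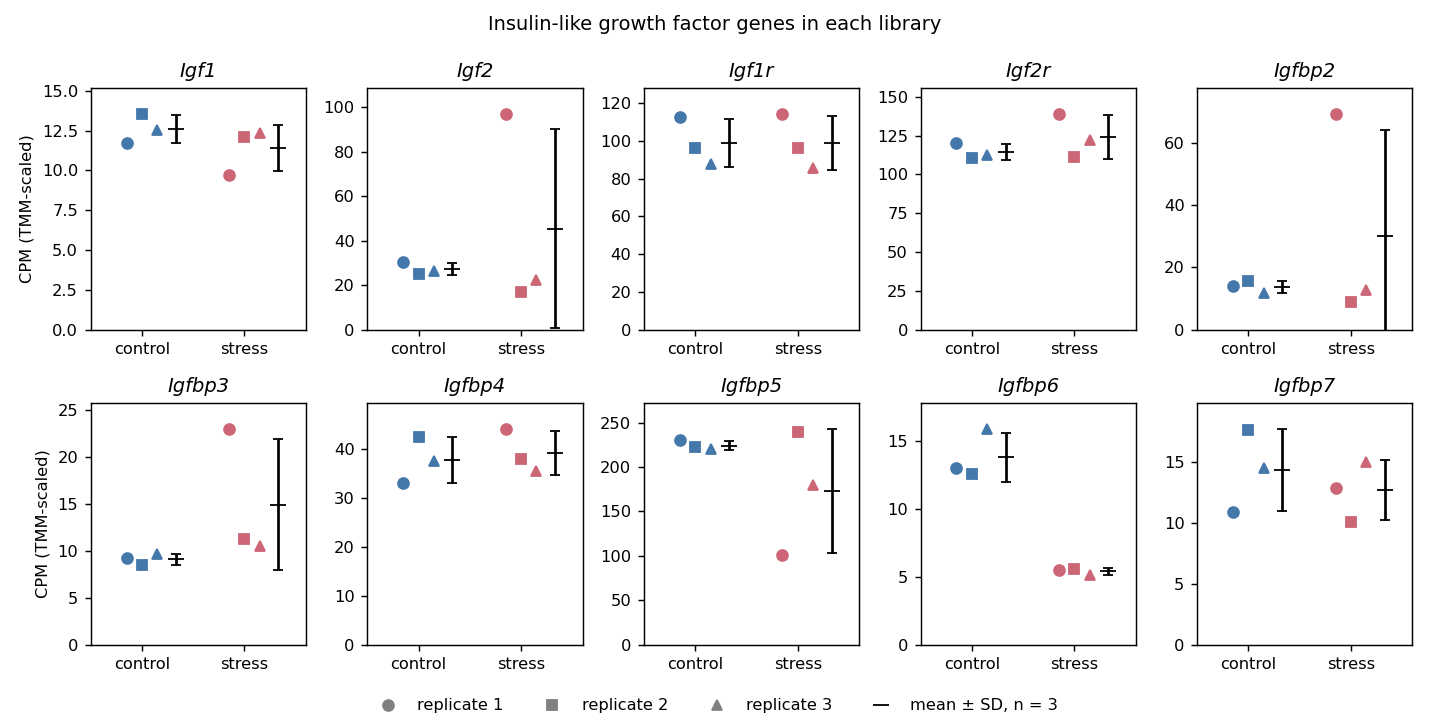
CPM on the vertical axis for each of the 10 genes, with control libraries in blue, stress libraries in red, a marker shape for each replicate number and black bars for the mean ± SD of 3 libraries. The Igfbp6 points separate into 12.5 to 15.9 CPM in controls and 5.09 to 5.59 CPM under stress, while Igf2, Igfbp2 and Igfbp3 each have 1 high stress point and Igfbp5 has 1 low one, all from stress replicate 1. The lower SD bar of Igfbp2 under stress runs below 0 and ends at the axis.

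Igfbp6 lies on chromosome 15 from 102144362 to 102149511 on the plus strand (GRCm38, GENCODE M21) and overlaps no other annotated gene. The RefSeq window shown above ends before this GENCODE start. The tested genes around it had log2 ratios near 0. Of the 3 nearest counted genes on each side, 4 had enough counts to be tested. The translation factor gene Eif4b was at 264 ± 9.59 CPM in controls and 268 ± 2.64 CPM under stress. Spryd3 had a log2 ratio of 0.034 (SE 0.098), the taurine synthesis gene Csad 0.18 (SE 0.14) and Zfp740 -0.016 (SE 0.070). Their adjusted p-values ran from 0.782 to 0.969. Krt18 and Soat2, with at most 70 and 4 counts in any library, were not tested.

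The genes whose pattern over the 6 libraries was most like that of Igfbp6 were taken by the root mean square difference of mean-centred log2 CPM, over 12627 genes with a median difference of 0.68. Kcns1, whose product modifies other potassium channel subunits, was nearest at 0.093. It was at 13.6, 13.2 and 15.7 CPM in controls and 5.79, 5.47 and 6.13 CPM under stress, so its highest control library was also the third. Ddit4l, whose product restrains mTOR signalling, followed at 0.16, then the nuclear receptor gene Pparg at 0.19, the caspase gene Casp1 at 0.21 and Lad1 at 0.21. Tacr3, the neurokinin B receptor gene, Trim66 and Lrrc55 lay at 0.22, 0.23 and 0.23. In all 8 the stress libraries lay below the controls, which the measure favours. Of the other members, the nearest was Igfbp5 at 0.58 and the farthest Igfbp2 at 1.31.

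Among the 9 genes taken by family, 0 passed the threshold of edgeR's test, and their median log2 ratio was 0.051 against 0.0038 over all tested genes. DESeq2, limma-voom and edgeR's exact test also called 0 of the 9. By edgeR's quasi-likelihood test only Igfbp3 of the 9 had an unadjusted p under 0.05. The share of all tested genes was 8.71%, with 4.85% lower and 3.86% higher. The groups did not overlap only for Igfbp3 of the 9, against 14.6% of all genes, 7.84% lower and 6.76% higher. Igfbp6 met both measures too, but it was chosen for its result in this contrast and is not counted here.

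Neither ligand gene passed the test, and the sign of the Igf2 ratio turned on 1 library. Igf2, an imprinted growth factor gene, was at 30.5, 25.0 and 26.5 CPM in controls and 96.9, 16.9 and 22.5 CPM in stress replicates 1, 2 and 3. Stress replicate 1 was 3.18-fold above the next library, while the other 2 stress libraries lay below all controls. The log2 ratio was 0.74 (SE 0.55), with an adjusted p of 0.790, and limma-voom put the ratio at 0.30. Without stress replicate 1 it was -0.46 (SE 0.14), with an adjusted p of 0.207. The 2 remaining stress libraries then lay below the controls, as for 14.6% of all genes in that fit. In either direction 29.2% of genes did not overlap there, and 0.289% of genes were called.

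Igf1, the other growth factor gene, was at 11.7, 13.5 and 12.6 CPM in controls and 9.71, 12.1 and 12.4 CPM under stress. Stress replicate 1 was the lowest, and the other stress libraries lay within the control range. Its log2 ratio was -0.15 (SE 0.14), with an adjusted p of 0.827, and -0.047 (SE 0.14) without that library.

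Neither receptor gene passed the test. Igf1r, which transmits the signal of both ligands, was at 113, 96.1 and 87.8 CPM in controls and 114, 96.1 and 85.8 CPM under stress. The groups covered nearly the same range, and the log2 ratio was -0.0017 (SE 0.12). Igf2r, the receptor that clears IGF2, was at 120, 111 and 113 CPM in controls and 139, 111 and 122 CPM under stress. Stress replicate 1 was the highest and the groups overlapped, with a log2 ratio of 0.11 (SE 0.091) and an adjusted p of 0.794.

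Igfbp2, a binding protein gene of choroid plexus and meninges, had the largest ratio of its highest to its lowest library, 7.91. It was at 14.04, 15.6 and 11.7 CPM in controls and 69.1, 8.73 and 12.7 CPM in stress replicates 1, 2 and 3. Stress replicate 1 stood 4.43-fold above the next library and the other 2 stress libraries lay within or below the control range. The log2 ratio was 1.13 (SE 0.68), with an adjusted p of 0.714, and limma-voom put the ratio at 0.53. With stress replicate 1 left out it was -0.36 (SE 0.19), with an adjusted p of 0.499.

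Igfbp3, the gene of the main carrier of these growth factors in serum, was at 9.20, 8.43 and 9.58 CPM in controls and 22.9, 11.2 and 10.5 CPM under stress. Each stress library lay above each control, and stress replicate 1 was 2.05-fold above the next. The log2 ratio of 0.71 (SE 0.30) had an unadjusted p of 0.0374 and an adjusted p of 0.540. In the fit that leaves out stress replicate 1 it was 0.26 (SE 0.15), with an adjusted p of 0.566. The 2 remaining stress libraries still lay above the controls, as for 14.5% of all genes in that fit.

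Igfbp5, whose product is cut by the protease PAPP-A2, was at 230.01, 222 and 220.1 CPM in controls and 101, 239 and 179 CPM in stress replicates 1, 2 and 3. The controls were close together, while the stress libraries spread on both sides of them. Its log2 ratio was -0.37 (SE 0.26), with an adjusted p of 0.750, and -0.099 (SE 0.10) without stress replicate 1. Igfbp5 and Igfbp2 lie end to end on chromosome 1, 5457 bases apart. In stress replicate 1 Igfbp2 was at its highest of the 6 libraries and Igfbp5 at its lowest.

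Igfbp4, for a binding protein that PAPP-A cuts, was at 33.0, 42.6 and 37.6 CPM in controls and 44.1, 38.0 and 35.4 CPM under stress. Igfbp7, for a related protein of low affinity for these growth factors that is known from blood vessels, was at 10.9, 17.6 and 14.6 CPM in controls and 12.9, 10.1 and 15.1 CPM under stress. Both pairs of groups overlapped, with log2 ratios of 0.051 (SE 0.12) and -0.18 (SE 0.21) and adjusted p-values of 0.941 and 0.864. Exons of Igfbp7 overlap Polr2b on the opposite strand, and exons of Igf2 overlap Igf2os on the opposite strand and the protein-coding gene Gm49394 on the same one. Reads there may be shared or left uncounted, since no source used here gives the strand setting of the counting.

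**Figure D2:**
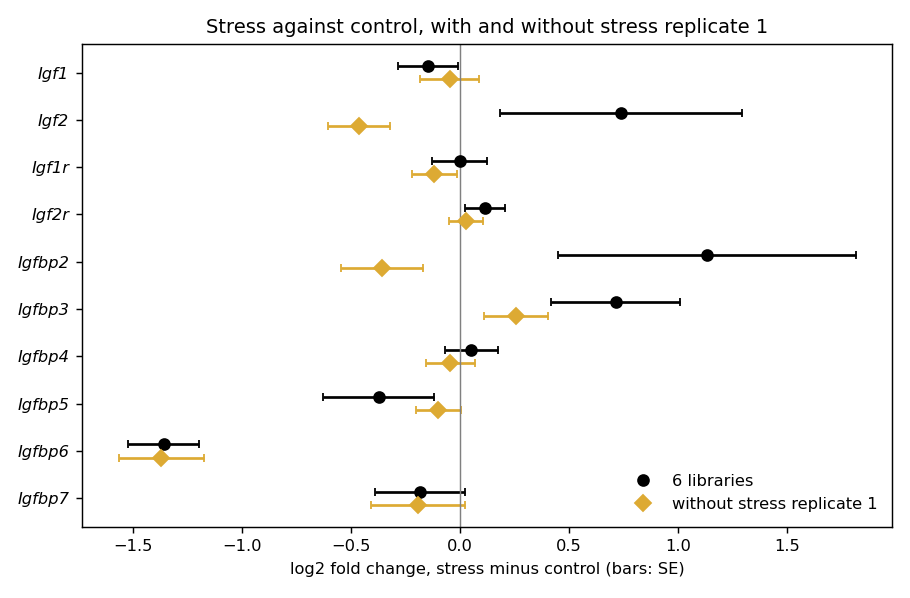
Log2 ratio of stress to control (the axis label is log2 fold change) with its SE, for the 10 genes, with all 6 libraries in black and without stress replicate 1 in yellow. Igfbp6 is at -1.36 and -1.37, while Igf2 moves from 0.74 to -0.46 and Igfbp2 from 1.13 to -0.36.

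Levels of different genes were compared per kilobase of exon. In controls Igfbp5 was the highest at 37.3 ± 0.882 CPM per kilobase (SD, n = 3), above all others in every control library. Igfbp6 followed at 12.4 ± 1.62, then Igf2r at 12.3 ± 0.554, Igfbp7 at 11.9 ± 2.80, Igfbp4 at 8.54 ± 1.08, Igfbp2 at 7.46 ± 1.06, Igf1r at 5.89 ± 0.752 and Igf2 at 4.78 ± 0.497. From Igfbp6 to Igf2 each gene's control range overlapped that of the next, so neighbours in this order did not differ beyond their spread. Igfbp3 at 2.90 ± 0.186 and Igf1 at 1.27 ± 0.0904 were lower than each gene before them in every control library. Under stress Igfbp6 was at 4.84 ± 0.232 CPM per kilobase and stood at place 8 of 10 by mean, below Igf1r at 5.87 ± 0.852. Without stress replicate 1 it stood at place 7, at 4.80 CPM per kilobase, above Igf2 at 3.44. With the longest transcript as the gene length, Igfbp6 stood at place 3 in controls, after Igf2r. The exon lengths are from GENCODE M21 and may not be those of the annotation used for counting.

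Among the 6 binding protein genes, Igfbp6 made up 15.1%, 13.5% and 17.6% of their summed level per kilobase in control replicates 1, 2 and 3, and 5.64%, 7.16% and 7.03% in stress replicates 1, 2 and 3. Igfbp5 was the largest part in 5 of the 6 libraries, at 44.2% to 49.7% in controls and 56.8% and 45.8% in stress replicates 2 and 3. In stress replicate 1 Igfbp2 was the largest part at 43.0%, and Igfbp5 was at 19.2%. A share falls when another gene of the sum rises, so the level per kilobase of each gene is the reading to set beside it.

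**Figure D3:**
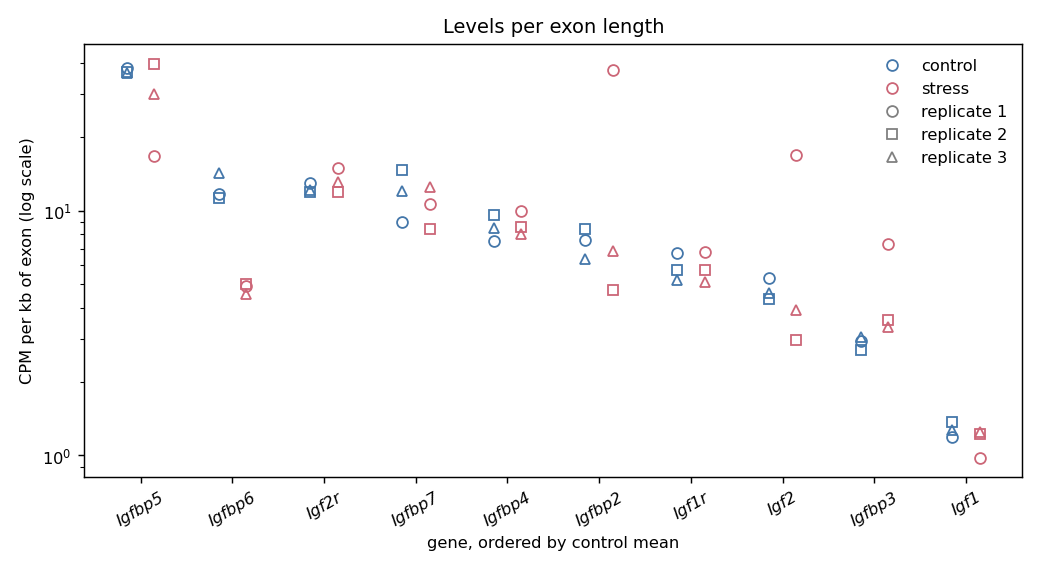
CPM per kilobase of exon on a log axis for the 10 genes, ordered by the control mean, with controls in blue, stress in red and a marker shape for each replicate number. Igfbp5 stands above the other genes in controls at 37.3 CPM per kilobase on average, and the Igfbp6 stress points lie at 4.58 to 5.03.

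Markers of the other cell types that the dissection could hold were summed in each library, over 13 lists. The dentate granule neuron markers were present in all libraries, at 846 to 975 CPM in controls and 427, 965 and 1117 CPM in stress replicates 1, 2 and 3. All 7 of them, with C1ql3 the most abundant, were lowest in stress replicate 1, the library in which Igfbp5 was also lowest. That library also held 4974 CPM of choroid plexus markers, led by Ttr, against 31.3 to 36.7 CPM in the other 5. All 12 choroid plexus markers were highest there, and in the other 5 libraries none was at 0 in every library. 6 of 6 ependymal markers, led by Dnah6, were highest there too, at 87.9 CPM against 6.96 to 10.7 CPM, as were all 5 counted striatal markers of 6 listed, led by Rgs9, at 433 against 37.8 to 61.9 CPM. The part of these cells in the high Igf2, Igfbp2 and Igfbp3 and the low Igfbp5 of that library was not tested. The meningeal and perivascular fibroblast markers, led by Dcn, were at 64.7 CPM there, below the 96.8 to 132 CPM of the other 5, with 4 of 10 at their lowest.

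Beside the lower Igfbp6, 2 of the 13 lists were lower in every stress library than in every control. The 7 thalamus and habenula markers, led by Nwd2, summed to 255 to 259 CPM in controls and to 131, 203 and 174 CPM in stress replicates 1, 2 and 3, and 5 of the 7 did not overlap, against 7.84% of all tested genes lower without overlap. The 6 neocortical and entorhinal markers, led by Rasgrf2, summed to 333 to 383 CPM in controls and to 247, 318 and 274 CPM under stress. Of these, 4 of the 6 did not overlap. In each list 0 were higher without overlap, but not all markers were lower. Fezf2 was at 17.8, 34.8 and 25.9 CPM in controls and 20.7, 45.4 and 41.8 CPM under stress, while Lamp5 overlapped. In the thalamus and habenula list Ntng1 was highest in stress replicate 2, at 69.5 CPM, and Prkcd in stress replicate 1, at 21.0 CPM. No marker of either list was at 0 in all libraries. Igfbp6 was at 5.09 to 5.59 CPM in the stress libraries, on 48 to 50 counts each. Counts this low limit the precision of its spread, which was not tested against that of these sums. The sum of the 10 meningeal and perivascular fibroblast markers overlapped between the groups, but 3 of the 10, Col1a2, Aldh1a2 and Slc13a3, were lower without overlap and 0 higher. Dcn, the most abundant, was at 19.1, 33.4 and 46.0 CPM in controls and 9.93, 46.6 and 68.7 CPM in stress replicates 1, 2 and 3. The other 9 summed to 85.8, 63.3 and 85.9 CPM in controls and 54.8, 52.0 and 60.2 CPM under stress, without overlap. Leaving out the most abundant gene of each list, a step chosen after seeing the data, gave 4 lists lower without overlap, the astrocyte and fibroblast lists being added, and 1 higher, that of neural stem and progenitor cells. The part of these cells in the lower Igfbp6 was not tested. The summed markers of GABAergic interneurons, led by Gad1, were at 665 to 736 CPM in controls and 672 to 698 CPM under stress. Of these 8 markers, 2 were lower without overlap, Gad1 among them, and 1 was higher. The summed markers of neural stem and progenitor cells, led by Hopx, were at 105 to 114 and 106 to 110 CPM. Of these 6, 1 was lower without overlap and 1 higher. Endothelial markers, led by Slco1a4, were at 220 to 251.2 and 207 to 242 CPM, with 2 of 9 lower without overlap and 0 higher. Mural markers, led by Vtn, were at 176 to 215 and 159 to 210 CPM, with 1 of 9 lower without overlap and 0 higher. Astrocyte markers, led by Slc1a3, were at 1636 to 1874 and 1479 to 1644 CPM, with 4 of 8 lower without overlap and 0 higher.

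**Figure D4:**
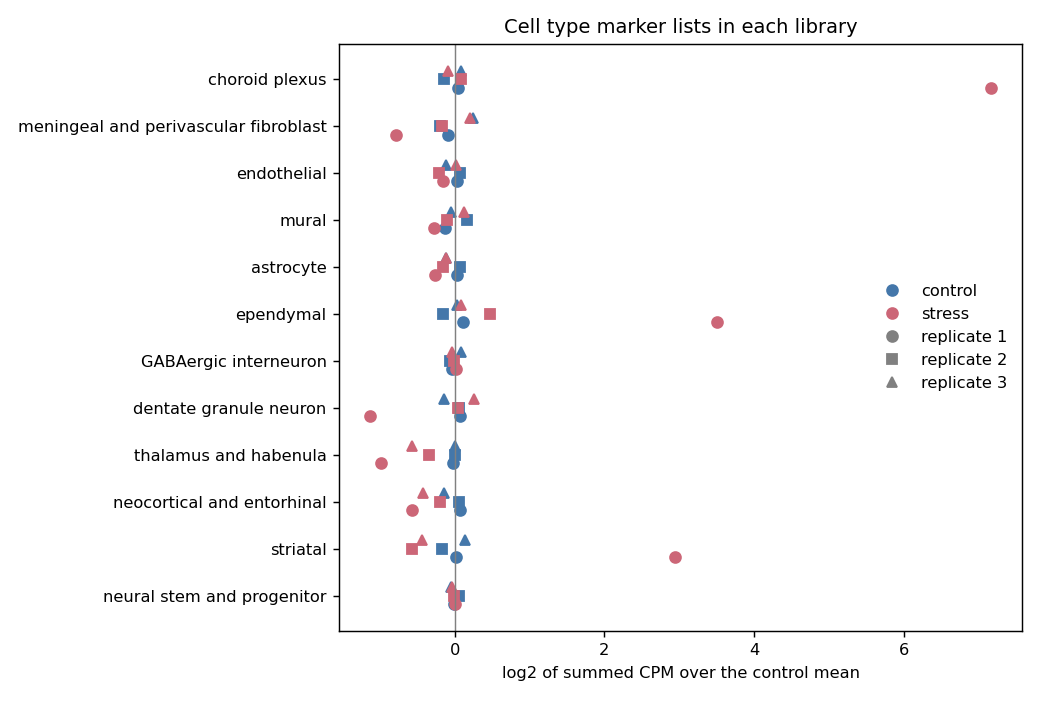
Summed CPM of the reported marker lists in each library, as the log2 ratio to the control mean on the horizontal axis, with controls in blue, stress in red and a marker shape for each replicate number. Stress replicate 1 lies far to the right for choroid plexus, ependymal and striatal markers and to the left for granule neuron markers, and all 3 stress points lie left of the controls for the thalamus and habenula and the neocortical and entorhinal lists.

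The wider pathway was taken as 43 further genes in lists by role, of which 33 had enough counts to be tested. 0 rose and 0 fell by edgeR's test, and DESeq2, limma-voom and edgeR's exact test also called 0. At an unadjusted p under 0.05 there were 4, or 12.1% of the 33, against 8.71% of all genes. Their median log2 ratio was -0.046, with 23 below 0 and 10 above. The groups did not overlap for 4 lower and 1 higher, where 7.84% of all genes were lower and 6.76% higher without overlap.

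The receptor adaptors, which pass the signal on from the receptors inside the cell, held 2 of the 4. Irs1, which docks to the activated insulin and IGF1 receptors, was at 79.7, 84.0 and 83.2 CPM in controls and 56.1, 78.5 and 65.7 CPM under stress. All stress libraries lay below all controls, with a log2 ratio of -0.30 (SE 0.11) and an adjusted p of 0.532. Grb10, an imprinted inhibitor of these receptors, was at 54.4, 60.5 and 62.5 CPM in controls and 48.7, 54.4 and 45.0 CPM under stress. The groups met at 54.4 CPM, with a log2 ratio of -0.26 (SE 0.095) and an adjusted p of 0.523. The 4 other tested adaptors, Irs2, Grb14, Shc1 and Gab1, had log2 ratios from 0.019 to 0.11.

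Of the 10 PI3-kinase and AKT genes, 8 had a log2 ratio below 0. Pik3r1, the main regulatory subunit, was at 217, 214 and 202 CPM in controls and 203, 180.2 and 156 CPM under stress, with stress replicate 1 inside the control range. Its log2 ratio was -0.23 (SE 0.098), with an adjusted p of 0.554. Pik3ca, a catalytic subunit, was at 146 to 147 CPM in controls and at 144, 131 and 120 CPM under stress, without overlap, and had -0.16 (SE 0.078), with an adjusted p of 0.614. The kinase genes Akt1 and Akt2 had 0.0083 (SE 0.074) and -0.024 (SE 0.083).

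Of the FOXO factors, which AKT keeps out of the nucleus, Foxo6 was at 10.05, 10.2 and 10.3 CPM in controls and 11.5, 16.5 and 11.9 CPM under stress. Every stress library was above the controls, with a log2 ratio of 0.38 (SE 0.16) and an adjusted p of 0.560. Foxo1 had -0.16 (SE 0.10), with an adjusted p of 0.739.

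Among the proteases that cut binding proteins and the stanniocalcins that inhibit them, Pappa had a log2 ratio of -0.28 (SE 0.25) and Stc2 -0.14 (SE 0.31), with adjusted p-values of 0.820 and 0.936. The insulin receptor gene Insr had -0.039 (SE 0.070), and Tmem219, for a cell surface receptor of IGFBP3, -0.093 (SE 0.14). Igfbpl1, for a protein related to the binding proteins, had -0.25 (SE 0.36) at 1.20 to 3.27 CPM. In growth hormone signalling, Stat5b had -0.21 (SE 0.11), with an adjusted p of 0.671. Socs2, an inhibitor of this pathway, was at 31.9 CPM in stress replicate 1 and at 12.2 to 19.2 CPM in the other 5 libraries. Its log2 ratio was 0.46 (SE 0.30), and 0.021 (SE 0.18) without stress replicate 1.

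**Figure D5:**
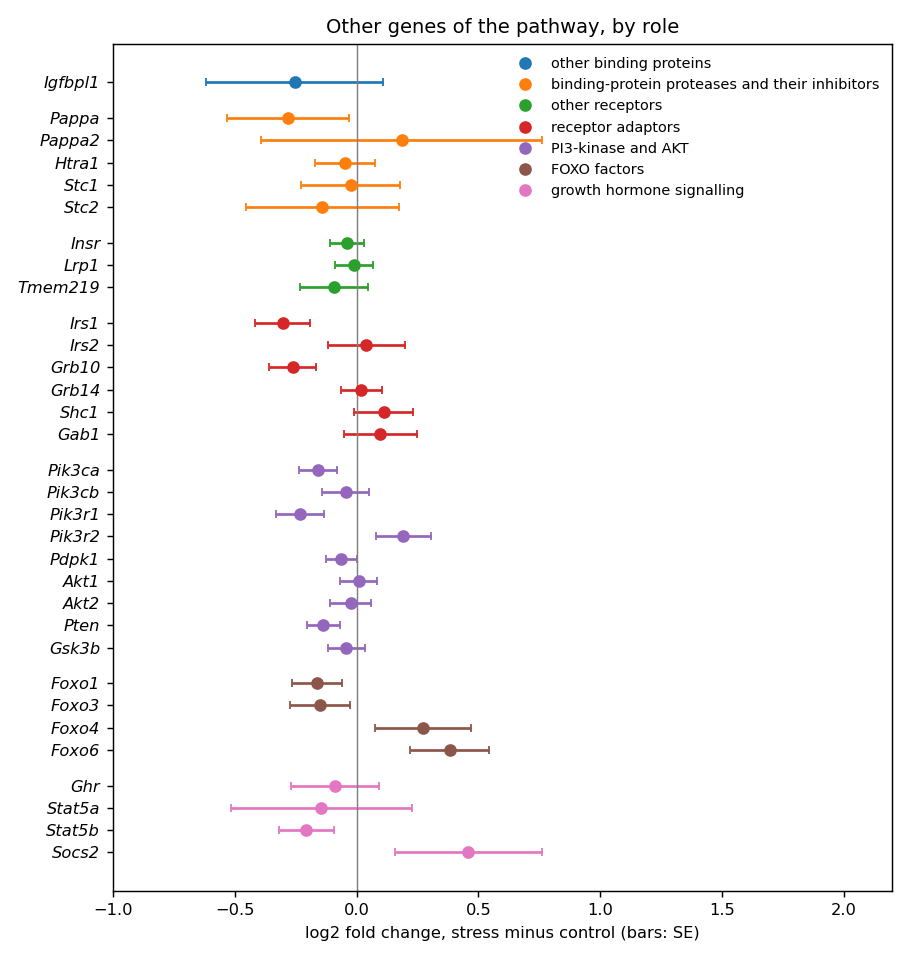
Log2 ratio of stress to control (the axis label is log2 fold change) with its SE, for the reported tested genes of the wider pathway, coloured by role. The values lie between -0.30 for Irs1 and 0.46 for Socs2, and none passed the threshold.

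10 listed pathway genes were not tested for lack of counts. The insulin gene Ins1 had 0 counts in all 6 libraries, which allows up to 3 counts in each, and Ins2 had 2 counts in stress replicate 1 and 0 in the others. Igfbp1 and Igfals, whose products circulate mainly from the liver, had at most 1 count in a library. The insulin receptor-related gene Insrr also had at most 1, and H19, the imprinted neighbour of Igf2, at most 2. Irs4 had at most 4 counts, and the Igf2 mRNA-binding protein genes Igf2bp1, Igf2bp2 and Igf2bp3 at most 4, 7 and 2.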

How the data were processed

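The authors deposited 1 table per library of raw read counts by gene symbol. The submitters' processing notes name the builds GRCm38 and mm10, the aligner TopHat2 (2.0.9), the counter HTSeq (0.6.1), Trimmomatic (0.33), FastQC (0.11.3) and edgeR (3.12.0), with no order or settings. No source used here gives the annotation or the counting options. Rows for reads in no gene (59.5% to 63.1% of listed reads) and ambiguous reads (0.211% to 0.253%) were left out.

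Genes were kept by filterByExpr of edgeR 4.0.16 in R 4.3.3, which left 14058, and scaled by TMM. The group term was tested, two-sided, with edgeR's quasi-likelihood fit, without covariates. Adjusted p-values are Benjamini-Hochberg over all tested genes. Standard errors come from limma 3.58.1 voom, ratios and p-values from edgeR. The fit was tested on simulated counts. Levels per kilobase divide CPM by the union exon length in GENCODE M21, in which 94.4% of symbols matched exactly 1 gene. Marker sums use every listed symbol in the files.

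Members and lists were chosen with earlier results of these data known, and the motifs and the genes next to Igfbp6 after the files were seen. Text names all members, the 2 genes with the smallest p in each pathway list, the 8 nearest Igfbp6 in pattern (average log2 CPM of at least 1, prior count 2, leaving out names of pseudogenes, clones, predicted genes and small RNAs) and the most abundant gene of each marker list, with others where a group of up to 5 is spelled out. 1 pathway gene and 1 marker list are counted in the totals and are not reported here by value. Every pair of libraries differed beyond sampling noise. The chi-square per degree of freedom was 2.97 to 8.46 for pairs without stress replicate 1 and 16.3 to 19.5 for pairs with it. Alternatives were other scalings and filters, edgeR's exact test, limma-voom and DESeq2 1.42.0 in place of the main test, a replicate block, a threshold of 0.10, plain library totals, the longest transcript as gene length, and each library left out.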

Additional observations from a re-analysis of the deposited data

How the results depend on the processing

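Genes called over the whole table numbered 4 by edgeR's quasi-likelihood test, 107 by DESeq2, 39 higher and 68 lower, 131 by edgeR's exact test, 44 higher and 87 lower, and 1 by limma-voom. With 1 library left out the count ran from 0 to 41. It was 41 (11 higher, 30 lower) without stress replicate 1, 28 without replicate 2 of the stress group, and 0 when replicate 3 of that group or any 1 control was left out. Scaling, filters and the threshold of 0.10 left it at 4. Of the 10 insulin-like growth factor genes, 1 was called in the main test, 0 by limma-voom and 0 to 1 with 1 library left out. Deviations from the group mean correlated at 0.14, -0.0076 and 0.042 between control and stress libraries of the same replicate number. Between libraries of unlike number the correlations ran from -0.15 to 0.12. Deviations within a group sum to 0, so with so few libraries these values cannot tell whether the numbers mark pairs. With the replicate number as a block, 0 genes were called in all (1299 had an unadjusted p under 0.05) and 0 of the 10. The called member is Igfbp6, chosen for that call, and its loss or return under a setting is a description. With limma-voom and the replicate block the log2 ratio was 0.30 and 0.36 for Igf2 and 0.53 and 0.65 for Igfbp2, against 0.74 and 1.13. Lists of markers lower without overlap numbered 2, and 4 without the most abundant gene of each. The cause of these changes was not tested.

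With 1 library left out, log2 ratios ran from -0.46 to 1.13 for Igf2, -0.36 to 1.56 for Igfbp2, -0.045 to 0.15 for Igfbp4, -0.12 to 0.10 for Igf1r, -0.52 to 0.027 for Igfbpl1 and -0.34 to 0.13 for Stc2. Igf2, Igfbp2 and Stc2 turned direction only without stress replicate 1, and Igfbp4 and Igfbpl1 without it or control replicate 1. Igf1r, at -0.0017 in the main test, was also above 0 with relative log expression scaling (0.0015), the CPM filter (0.0035) and DESeq2 (0.0012). Pathway genes were followed one by one only for up to 2 per list, those with the smallest p. Irs2, Grb14, Shc1, Gab1, Akt1 and Akt2 were not among them. Of the other 179 of 182 values of the genes followed, none changed direction or side of the threshold. Counts of about 50 per stress library limit the precision of Igfbp6.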
